A study of Mus musculus with 6 samples.

Results

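The small subunit of the cytosolic ribosome is built on 1 ribosomal RNA and a set of proteins, most of them encoded by a single active gene in the mouse. Of the 22298 entries of the expression table, 28 were chosen here: the protein-coding rows whose symbol is that of a listed small subunit gene (Rpsa, Fau and 26 genes named Rps). All 28 symbols were found once as protein-coding genes, and each is the gene of a structural protein of the small subunit. The rule itself uses symbols and gene type, not levels or changes.

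RNA was sequenced from newborn mouse ocular lenses (postnatal day 0) of 2 genotypes, Fyco1-/- and wild type (WT), both labelled C57BL/6, with 3 libraries each. Every library is a biological replicate made from 10 pooled lenses, so the spread between libraries is that between pools and no value belongs to 1 animal. The Fyco1-/- label stands for loss of both copies of Fyco1, which encodes an adaptor that couples autophagosomes to kinesin motors. How the allele was made is not given in the sources used here. WT lenses carry no listed allele or treatment.

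The small subunit binds the messenger RNA, scans for the start codon and checks the pairing of codon and transfer RNA. Its proteins are made in matched amounts, and a surplus protein is degraded. Their mRNAs belong to the TOP class, which begins with a C followed by a run of pyrimidines, and mTOR signalling raises their translation through this tract. Lens fibre cells make crystallins in bulk and later lose their ribosomes with their organelles, while the epithelium at the front keeps both.

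The 5′ ends of the genes are shown first, because a tract at the start defines the TOP class. RefSeq start windows (GRCm38.p6) were found for 24 of the 28 genes, Rps14, Rps20, Rps27a and Rps29 being the other four. The windows below hold 15 bases on each side of the annotated start. Capitals mark the longest run of C and T that begins with a C inside the window. Such a run need not begin at the annotated start: its offset was 3 bases in Rps23 and -14 bases in Rps7. The Rps7 run lies wholly before the annotated start. The first 6 are genes called changed below, and Rps10 and Rps6 are genes with long runs that were not called.
Rps28 (chr17:33824548-33824577, minus strand): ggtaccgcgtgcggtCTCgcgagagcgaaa
Rps23 (chr13:90923107-90923136, plus strand): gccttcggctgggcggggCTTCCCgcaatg
Rps27 (chr3:90213634-90213663, minus strand): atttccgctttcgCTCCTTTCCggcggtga
Rps18 (chr17:33955651-33955680, minus strand): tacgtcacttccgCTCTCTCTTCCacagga
Fau (chr19:6057932-6057961, plus strand): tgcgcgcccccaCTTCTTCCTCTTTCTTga
Rps7 (chr12:28635939-28635968, minus strand): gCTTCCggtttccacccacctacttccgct
Rps10 (chr17:27635230-27635259, minus strand): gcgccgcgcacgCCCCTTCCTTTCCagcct
Rps6 (chr4:86857353-86857382, minus strand): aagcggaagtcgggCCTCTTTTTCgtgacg

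A run of at least 5 bases, read on the sense strand only and taking the best of a gene's annotated starts, was present in 17 of the 24 genes (70.8%). It was present in 24 of 34 large subunit genes (70.6%) and in 43.6% of all 27025 genes with a start window. Runs of at least 8 bases were present in 10 of the 24 small subunit genes (41.7%), 17 of the 34 large subunit genes and 12.6% of all genes. Fau had the longest run, of 16 bases, and Rps28 had a run of 3 bases. Genes called below had both long and short runs: 9 bases in Rps27 and 11 in Rps18, but 6 in Rps23 and 5 in Rps7. In the 300 bases from 250 before to 50 after the start, the letters CCGGAAG on either strand were found in 41.7% of the small subunit genes, 41.2% of the large subunit genes and 9.93% of all genes. The letters CTTTCC on the sense strand were found in 20.8%, 52.9% and 16.0% of these 3 sets in the same order. The letters TATAAA on the sense strand were found in 8.33%, 8.82% and 9.77%, and CACGTG on both strands, which reads the same on each, in 4.17%, 14.7% and 8.09%. None of these searches allowed a mismatch, and a match is only a string of letters.

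Expression is given in FPKM, fragments per kilobase of gene scaled to the mapped reads, as the authors deposited it. The table gives no counts, and the depth estimated from the steps between its low values was 18.8 M, 19.5 M and 19.0 M reads in Fyco1-/- and 17.1 M, 20.1 M and 17.4 M reads in WT (libraries A, B and C in that order, here and below). By that estimate no small subunit gene had under 5921 reads in any library. Crystallins took 70.2% to 71.7% of the summed FPKM. Fyco1 itself measured 4.61, 4.59 and 4.87 FPKM in Fyco1-/- and 5.40, 5.21 and 5.11 FPKM in WT (log2 fold change -0.15, limma adjusted p = 0.273). Its values sum over the whole gene and show neither exons nor alleles, so they do not check the genotype labels. Bfsp2, a lens intermediate filament gene, had 78.3, 81.2 and 116 FPKM in Fyco1-/- and 1688, 1757 and 1764 FPKM in WT. Its log2 fold change was -4.26 (limma adjusted p = 0.000141). Whether the genotypes differ at sites other than Fyco1 was not tested. Summed lens fibre markers were 129884 to 134694 FPKM in Fyco1-/- and 127907 to 131853 FPKM in WT, with 0 of 9 genes called higher and 2 lower. The log2 fold changes of these 9 genes ran from -1.52 to 0.15, with a median of -0.01, a spread that the sum does not show. Summed lens epithelium markers were 414 to 446 FPKM in Fyco1-/- and 479 to 530 FPKM in WT, and 2 of 6, Sfrp1 and Pax6, were called lower. By the same test, described below, 3.42% of all tested genes were called higher and 5.02% lower. Summed blood cell, vessel and pericyte markers overlapped between the genotypes, and cornea, retina and pigment cell markers summed to 1.40 FPKM or less in every library. The part of a shift in epithelium in the results below was not tested, and in pooled whole lenses fewer cells of a type and less RNA per cell cannot be told apart.

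All 28 small subunit genes were abundantly expressed in both genotypes. Their mean over the 6 libraries ran from 59.6 FPKM for Rps15a to 1151 FPKM for Rps27, a 19.3-fold range, with a median of 442 FPKM. The order of levels must be read per annotated length: FPKM divides by the length of the gene model, and Rps15a has a model of 6270 exon bases for a coding sequence of 390 bases. Across the 28 genes, which share the same libraries, the log2 mean level and the log2 exon length had a Spearman rho of -0.38.

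**Figure D1:**
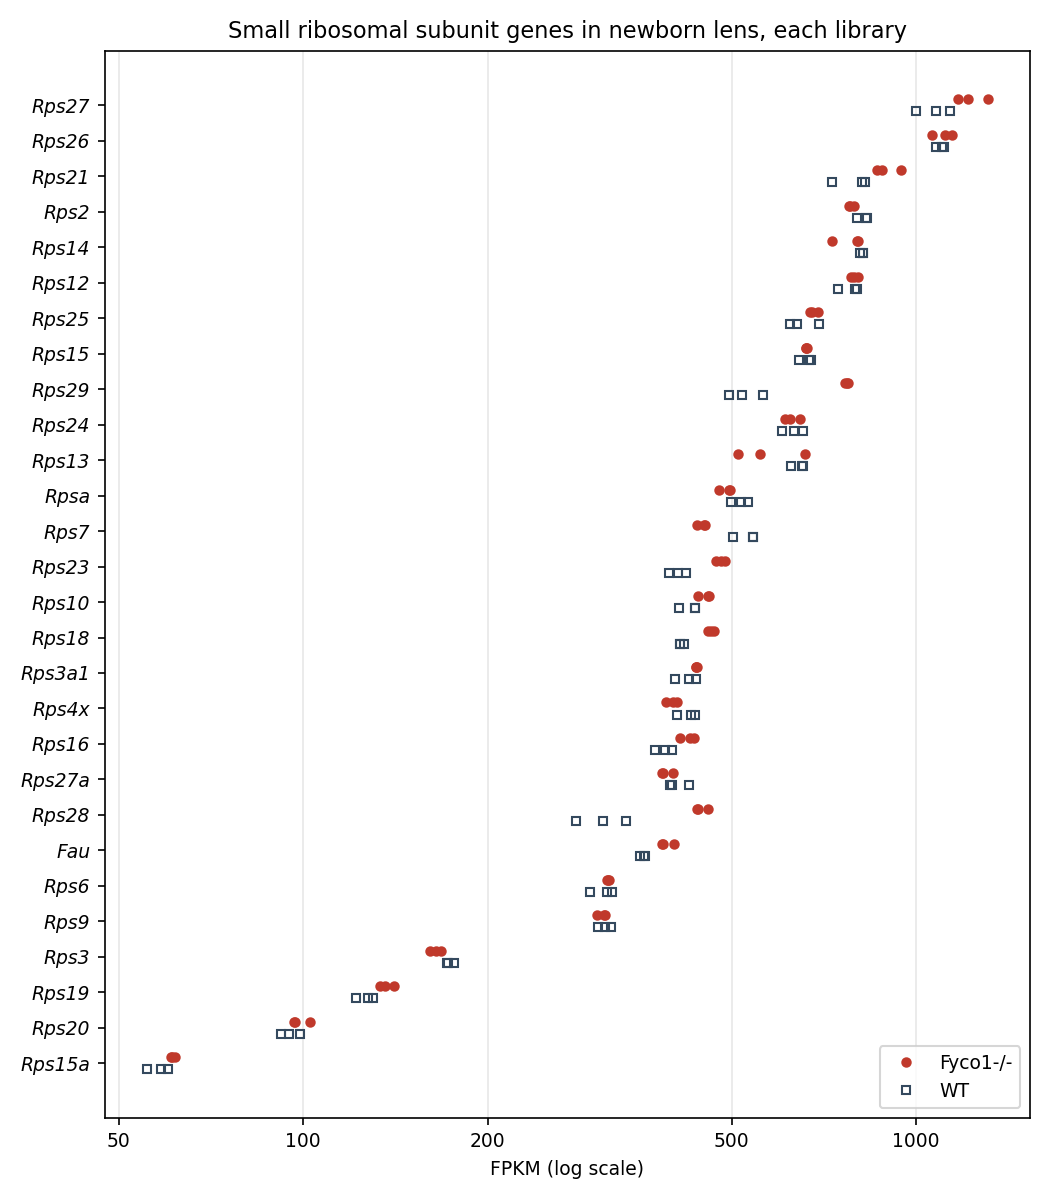
FPKM on a log axis of the 28 small subunit genes, ordered by mean, with 1 point per library (filled circles Fyco1-/-, open squares WT). Most genes have overlapping or neighbouring points, while Rps29 and Rps28 show the widest gaps between the genotypes, with Fyco1-/- higher. Smaller gaps show for Rps23 and Rps18, with Fyco1-/- higher, and for Rps7, with Fyco1-/- lower.

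Rps27, whose protein holds a zinc finger, was the most abundant, followed by Rps26 and Rps21. Rps26, whose protein lies at the mRNA exit of the subunit, had 1064, 1116 and 1147 FPKM in Fyco1-/- and 1112, 1077 and 1102 FPKM in WT. The genotypes overlapped for this gene. Rps21 had 865, 880 and 946 FPKM in Fyco1-/- and 729, 826 and 817 FPKM in WT. All Fyco1-/- values lay above WT, but Rps21 was not called (log2 0.18, SE 0.05, limma adjusted p = 0.0643). The neighbouring ranks were close: Rps27 and Rps26 overlapped in level within WT, and so did Rps21 with Rps2 and Rps14.

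At the low end stood Rps19, Rps20 and Rps15a. Rps19, the gene most often mutated in human Diamond-Blackfan anaemia, had 141, 136 and 133 FPKM in Fyco1-/- and 122, 128 and 130 FPKM in WT. Rps20, whose protein is ubiquitinated on collided ribosomes, had 103, 97.0 and 96.7 FPKM in Fyco1-/- and 94.9, 92.0 and 98.9 FPKM in WT. Rps15a had 61.0, 60.8 and 61.9 FPKM in Fyco1-/- and 58.6, 55.6 and 60.1 FPKM in WT. Fyco1-/- lay above WT without overlap for Rps19 and Rps15a and overlapped for Rps20, and none of these 3 was called. The libraries of 1 genotype were alike, with a median coefficient of variation over the 28 genes of 2.19% in Fyco1-/- and 3.52% in WT. Rps13 had the widest spread in Fyco1-/- (13.0%) and Rps28 in WT (9.48%).

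The comparison asked how these transcripts differ between Fyco1-/- and WT lenses at birth. Rps29, Rps28, Rps23, Rps27, Rps18 and Fau were higher in Fyco1-/- and Rps7 was lower, and the largest differences, of Rps29 and Rps28, were 1.46-fold and 1.45-fold. The other 21 genes did not pass the test, and their log2 fold changes ran from -0.17 to 0.18. Calls rest on limma, fitted on log2(FPKM + 0.5) over all 12001 genes tested, with an adjusted p (Benjamini-Hochberg) below 0.05. The count was 6 higher and 1 lower of the 28, all of which passed the filter on low values, where 3.42% of all tested genes were called higher and 5.02% lower (8.43% in either direction). The median log2 fold change was 0.04 over the 28 genes and -0.04 over all tested genes. With median-of-ratios scaling these medians were 0.086 and -0.0034, and with quantile normalization 0.028 and -0.0027. Of the 28, 18 had a positive and 10 a negative log2 fold change, although the signs of Rps9, Rps15, Rps24 and Rpsa depended on the scaling. The 3 Fyco1-/- libraries lay above the 3 of WT for 11 genes and below them for 6. Of all tested genes 11.1% lay above and 18.6% below in this way, 29.7% in all.

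**Figure D2:**
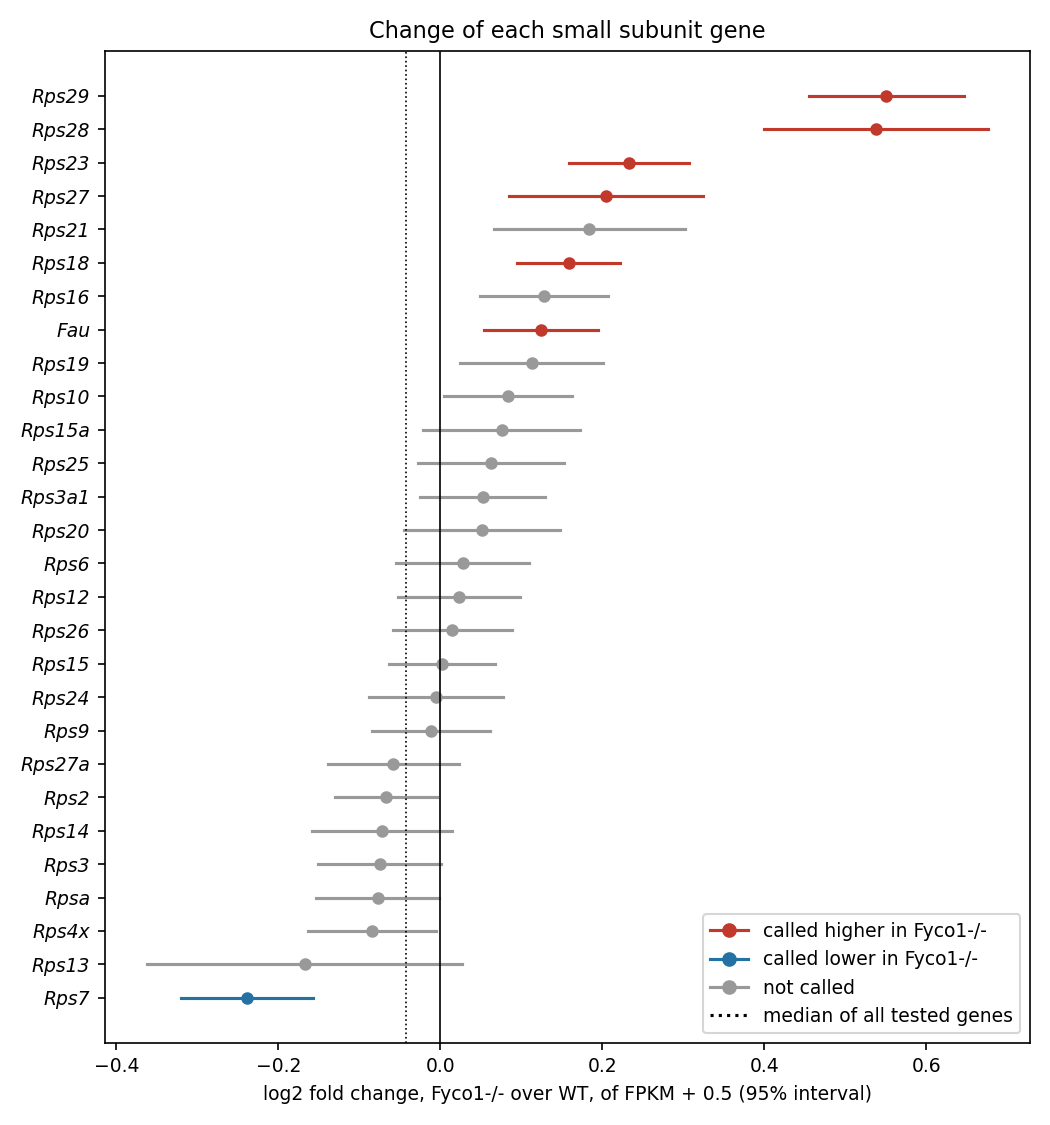
Log2 fold change of each small subunit gene, Fyco1-/- over WT, on the log2(FPKM + 0.5) scale, with bars for the 95% interval from limma. The 6 genes called higher run from Fau at 0.12 to Rps29 at 0.55, the gene called lower is Rps7 at -0.24, and the dotted line is the median of all tested genes.

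Rps29 and Rps28 rose the most. Rps29 (ENSMUSG00000034892 in GENCODE M21, GRCm38 chromosome 12, 69157722 to 69159186, minus strand) encodes a small zinc-binding protein of the head. It had 766, 771 and 774 FPKM in Fyco1-/- and 520, 496 and 564 FPKM in WT, so that the genotypes were far apart and Fyco1-/- varied little. The difference came to 0.55 on the log2 scale (SE 0.04, limma adjusted p = 5.85e-05).

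Rps28 (ENSMUSG00000067288, chromosome 17, 33819027 to 33824562, minus strand) encodes a small protein near the mRNA exit channel. It had 458, 439 and 440 FPKM in Fyco1-/- and 308, 279 and 337 FPKM in WT, and the lowest Fyco1-/- library lay well above the highest WT library. The difference came to 0.54 on the log2 scale (SE 0.06, limma adjusted p = 0.000875). The exons of Rps28 overlap those of Kank3 on the other strand, and the strand setting of the counting is not given in the sources used here.

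Rps27 (chromosome 3, 90212522 to 90213651) had 1172, 1216 and 1309 FPKM in Fyco1-/- and 1077, 999 and 1134 FPKM in WT. The groups did not overlap, but Fyco1-/- A lay close to WT C. Its log2 fold change of 0.20 (SE 0.05) was near the threshold (limma adjusted p = 0.0469). Without Fyco1-/- B, Fyco1-/- C, WT A or WT B, Rps27 was no longer called (limma adjusted p = 0.108, 0.122, 0.115 and 0.110).

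The remaining genes called higher differed by less. Rps23 (chromosome 13, 90922958 to 90924950), whose protein sits at the decoding centre and guards the accuracy of codon reading, had 488, 480 and 472 FPKM in Fyco1-/- and 422, 396 and 408 FPKM in WT. The groups stood apart, with a log2 fold change of 0.23 (SE 0.03, limma adjusted p = 0.00221). Rps18 (chromosome 17, 33951999 to 33956001), whose protein lies at the top of the head and touches the large subunit, had 463, 457 and 468 FPKM in Fyco1-/- and 413, 413 and 418 FPKM in WT. Both genotypes varied little for Rps18, and they differed by 0.16 on the log2 scale (SE 0.03, limma adjusted p = 0.00814). Fau (chromosome 19, 6057844 to 6059524) encodes a ubiquitin-like protein fused to a small subunit protein, which are cut apart after translation. It had 403, 386 and 385 FPKM in Fyco1-/- and 361, 355 and 361 FPKM in WT, without overlap. It differed by 0.12 on the log2 scale (SE 0.03, limma adjusted p = 0.0385), and the call was lost when any of the 6 libraries was left out (limma adjusted p 0.0735 to 0.111).

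Rps7 (chromosome 12, 28630854 to 28635953, minus strand) encodes a protein of the subunit body that also binds the p53 regulator Mdm2 when ribosome assembly fails. It had 439, 452 and 451 FPKM in Fyco1-/- and 542, 502 and 541 FPKM in WT. All 3 Fyco1-/- libraries lay below WT, which was 1.18-fold higher in the mean. On the log2 scale it fell by 0.24 (SE 0.04, limma adjusted p = 0.0033). It stayed called without any 1 library, and with median-of-ratios scaling it was not called (log2 -0.19, adjusted p = 0.0576). With the reads of near-identical pseudogenes added, an alternative chosen after the data were seen, the fall was smaller, at a log2 fold change of -0.14 (limma adjusted p = 0.04).

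Rpsa, Rps2, Rps3, Rps4x and Rps14 were not called, although all their Fyco1-/- values lay below WT. Rpsa, also known as the laminin receptor, stood at -0.08 on the log2 scale (limma adjusted p = 0.197). Rps2 and Rps3, whose proteins line the mRNA entry, both had log2 fold changes of -0.07 (limma adjusted p = 0.18 and 0.209). Rps4x, the X-linked copy of its gene, measured 391, 408 and 402 FPKM in Fyco1-/- and 436, 408 and 429 FPKM in WT, at limma adjusted p = 0.176. Rps14, whose loss on 1 chromosome marks a human myelodysplastic syndrome, stood at -0.07 (limma adjusted p = 0.285). For Rps4x the highest Fyco1-/- value and the lowest WT value were all but equal.

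Rps16, whose protein tail reaches the peptidyl-site transfer RNA, had 428, 434 and 412 FPKM in Fyco1-/- and 399, 375 and 390 FPKM in WT. The groups did not overlap, and at log2 0.13 it narrowly missed the threshold (limma adjusted p = 0.0531). Rps10, a target of the ubiquitin ligase Znf598 on collided ribosomes, and Rps19 also lay above WT in all Fyco1-/- libraries (log2 0.08 and 0.11, adjusted p = 0.183 and 0.111). Rps6, the phosphorylation target of the kinases named after it, had 316, 315 and 313 FPKM in Fyco1-/- and 314, 294 and 319 FPKM in WT. The genotypes overlapped for Rps6 (log2 0.03, adjusted p = 0.702). Rps27a, which encodes ubiquitin fused to a small subunit protein, overlapped between the genotypes (log2 -0.06, adjusted p = 0.368). Rps15, Rps24, Rps9, Rps26, Rps12, Rps3a1 and Rps25 overlapped too, with log2 fold changes from -0.01 to 0.06. Neither Rpsa nor Rps25, which lie on chromosome 9 with Fyco1, was called, while 13.2% of all tested genes of that chromosome were called and 8.18% of those elsewhere.

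In the authors' deposited table, higher values were called for 9 of the 28 genes and a lower one for 1, at an adjusted p under 0.05. The same cut of the authors' deposited table takes in 5.22% of its 13066 genes with an adjusted p as higher and 4.15% as lower. All 7 genes named above were among them, and the authors' deposited table adds Rps16, Rps21 and Rps19 as higher. The median log2 fold change of the authors' deposited table was 0.0855 for the 28 genes and -0.0036 for all its genes with an adjusted p.

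Taken as a sum, the 28 genes made up 1.95%, 1.96% and 1.97% of all FPKM in Fyco1-/- and 1.91%, 1.85% and 1.92% in WT. The means were 1.96% ± 0.0101 in Fyco1-/- and 1.89% ± 0.0399 in WT (SD, n = 3 libraries each). The ratio of summed small to summed large subunit FPKM was 0.700 ± 0.0092 in Fyco1-/- and 0.698 ± 0.0038 in WT, a difference smaller than the SD within either genotype. The makeup within the sum differed more. The 4 genes with the shortest coding sequences, Rps29 (168 bases), Rps28 (207), Rps21 (249) and Rps27 (252), made up 22.2%, 22.4% and 23.2% of small subunit FPKM in Fyco1-/-. They made up 18.6%, 18.9% and 19.6% in WT, so the groups did not overlap. The set was chosen after the values were seen and holds Rps29 and Rps28, the largest rises. Its share therefore restates those changes in part.

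**Figure D3:**
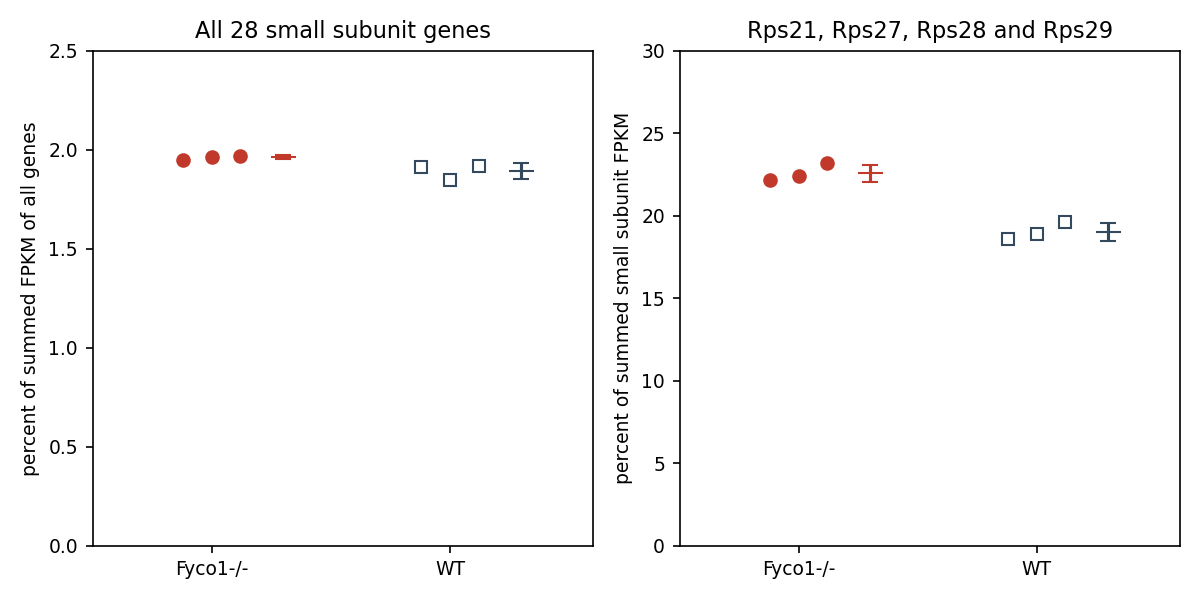
Left, share of the summed FPKM of all genes taken by the 28 small subunit genes; right, share of small subunit FPKM taken by Rps21, Rps27, Rps28 and Rps29. These short genes were chosen after the values were seen. Points are libraries and bars are the mean ± SD of 3 (Fyco1-/- left, WT right); the right-hand share is 22.6% ± 0.516 in Fyco1-/- and 19.0% ± 0.541 in WT.

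Genes with shorter coding sequences tended to have higher log2 fold changes, a relation looked at after the values were seen. Across the 28 genes, measured in the same 6 libraries, the log2 fold change and the log2 coding length had a Spearman rho of -0.65 and a Pearson r of -0.74. Without Rps28 and Rps29 rho was -0.56 over 26 genes. The 4 genes under 300 coding bases had a median log2 fold change of 0.37, and 3 of them were called higher. The 8 genes of 500 to 1000 bases had a median of -0.07, with 0 called higher and 1 lower. Against GC content of the transcript rho was -0.02, and against the mean level it was -0.03.

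Large subunit genes showed the same ordering by rank, with a Spearman rho of -0.65 over 46 genes (Pearson r -0.21, which includes Rpl29). Over 10879 other protein-coding genes tested rho was -0.08. Other genes under 300 coding bases with a mean of at least 50 FPKM numbered 51, and 12 of them (23.5%) were called higher and 2 lower. Among other genes of that level with 500 to 1000 coding bases 13.3% were called higher, and among all 229 other genes under 300 coding bases 9.61% were. In an alternative chosen after the data were seen, trends on exon length and GC content over all genes were removed. Rps29 and Rps28 then had log2 fold changes of 0.53 and 0.56 (limma adjusted p = 0.000361 and 0.00156). Exon length here is that of the whole gene model, 693 bases for Rps29 and 1719 for Rps28. A trend on coding length was not removed. In that setting Rps27 was not called (log2 0.19, adjusted p = 0.0839), nor was Rps21 (adjusted p = 0.15). The median of the 28 genes then lay 0.038 above that of all tested genes, against 0.083 without the removal.

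**Figure D4:**
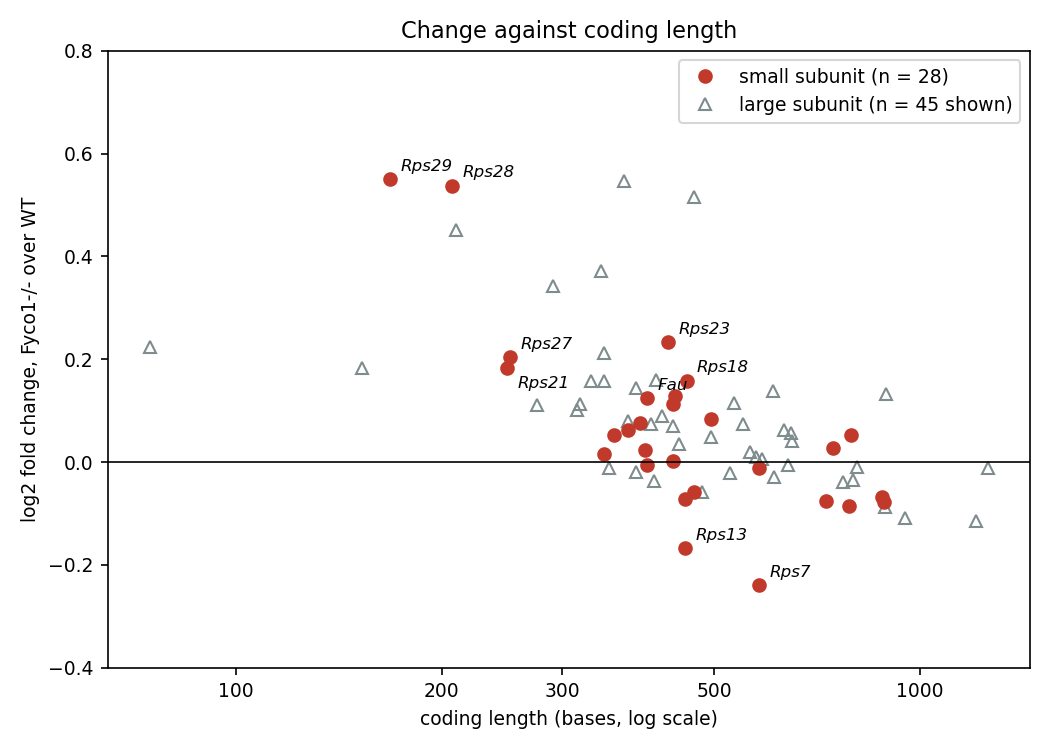
Log2 fold change, Fyco1-/- over WT, against coding length in bases (log axis) for the 28 small subunit genes (filled circles) and 45 large subunit genes (open triangles). Rpl29, at -2.45, lies below the axis and is not drawn; the shortest small subunit genes, Rps29 and Rps28, are the highest of the filled circles, and the small subunit genes of 500 bases or more lie between -0.24 and 0.05.

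Retrotransposed copies of ribosomal protein genes are common in mammalian genomes, and reads of a gene can be shared with a copy. All 28 genes have at least 1 other annotated gene that is 95% or more identical over at least 100 coding bases, and for 24 of them such a gene is in the table. For most these near-identical genes, not all of which are pseudogenes, were low: in 21 of these 24 their summed FPKM was under 20 in both genotypes. The copies named here were chosen after their values were seen.

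Gm6472, an Rps7 pseudogene on the X chromosome (152909505 to 152910155, minus strand), had 91.6, 100.4 and 103.6 FPKM in Fyco1-/- and 3.59, 3.75 and 2.38 FPKM in WT. All 3 Fyco1-/- libraries were high and all 3 WT libraries low (log2 4.75, SE 0.14, limma adjusted p = 1.33e-06). It matches the Rps7 coding sequence over all 582 bases at 99.5%, with the substitutions T26G, G48A and G123T, counted from the A of the start codon with the Rps7 base first. The windows around these sites (GENCODE M21 transcripts, sense strand) show how little separates the genes, with the differing base in capitals.
Rps7 at T26G: gccaagatcgTgaagcccaat
Gm6472 at T26G: gccaagatcgGgaagcccaat
Rps7 at G48A: gcgagaagccGgacgagttcg
Gm6472 at G48A: gcgagaagccAgacgagttcg
Rps7 at G123T: cgcagctgcgGgaactcaaca
Gm6472 at G123T: cgcagctgcgTgaactcaaca

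Multiplied by the GENCODE M21 exon length, Rps7 had 885, 910 and 909 fragments per M mapped reads in Fyco1-/- and 1092, 1012 and 1090 in WT. On the same scale Gm6472 had 59.6, 65.4 and 67.4 in Fyco1-/- and 2.34, 2.44 and 1.55 in WT. By these lengths the difference was smaller than that of Rps7 and opposite in sign. The lengths behind the deposited FPKM are not given in the sources used here, so the fragment values are approximate. Whether reads were shared between the genes was not tested.

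Rps13, whose protein binds the central part of the ribosomal RNA, showed a similar pair within Fyco1-/-. It had 658, 512 and 557 FPKM in Fyco1-/- and 651, 625 and 654 FPKM in WT, so that Fyco1-/- A lay with WT and Fyco1-/- B and C below. Its pseudogene Rps13-ps1 (chromosome 8, 87047689 to 87048226, plus strand) had 3.25, 181 and 134 FPKM in the same Fyco1-/- libraries and 4.13, 2.87 and 2.77 FPKM in WT. The libraries with the high pseudogene were those with the low Rps13. Rps13 was not called (log2 -0.17, SE 0.08, limma adjusted p = 0.268), but without Fyco1-/- A it was called lower at -0.27 (adjusted p = 0.00497). With pseudogene reads added it stood at -0.11 (adjusted p = 0.286). The pair differs at T411C and A429G over 453 coding bases, again with the Rps13 base first and in capitals.
Rps13 at T411C: tgctcccaccTaattggaaat
Rps13-ps1 at T411C: tgctcccaccCaattggaaat
Rps13 at A429G: aatatgagtcAtccacagcct
Rps13-ps1 at A429G: aatatgagtcGtccacagcct

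**Figure D5:**
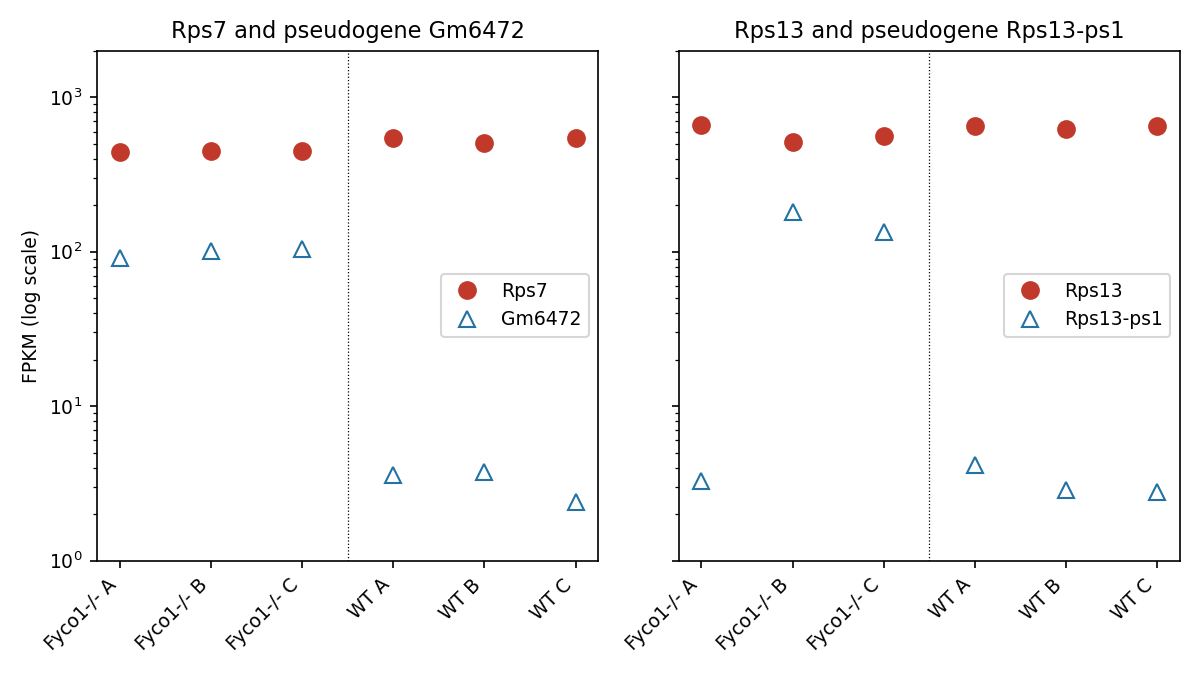
FPKM on a log axis of Rps7 with its pseudogene Gm6472 (left) and of Rps13 with Rps13-ps1 (right) in each library. Gm6472 is at 91.6 to 103.6 FPKM in the 3 Fyco1-/- libraries and at 2.38 to 3.75 FPKM in WT, while Rps13-ps1 is high in Fyco1-/- B and C and low in Fyco1-/- A and in WT.

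Fyco1-/- A also stood apart from B and C for Rps15a-ps7, which had 1.08, 23.8 and 15.6 FPKM in Fyco1-/- and 0.597, 0.762 and 0.732 FPKM in WT. Rps15a itself showed no such split. The 2 genes with the largest rises have copies with identical coding bases at low level. Gm10443, identical to Rps28, had 14.9, 14.1 and 14.8 FPKM in Fyco1-/- and 10.3, 11.6 and 8.20 FPKM in WT, a ratio of means of 1.45 like that of Rps28. Gm14303, identical to Rps29, had 11.8, 15.6 and 12.9 FPKM in Fyco1-/- and 13.3, 6.41 and 7.72 FPKM in WT, with overlap. How reads that fit several places were counted is not given in the sources used here, so reads of these identical copies and of their genes cannot be told apart.

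Of 46 tested large subunit genes 11 were called higher and 2 lower, with a median of 0.07. Of all tested genes 3.42% were called higher and 5.02% lower. The stalk protein gene Rplp1 was higher, at 1417 ± 40.5 FPKM in Fyco1-/- and 1095 ± 23.5 FPKM in WT (mean ± SD, n = 3 libraries each, as in the values below), as was Rpl38, at 822 ± 26.7 FPKM in Fyco1-/- and 601 ± 34.4 FPKM in WT. Rpl35 was higher at a low level, with 27.5 ± 2.56 FPKM in Fyco1-/- and 18.6 ± 0.839 FPKM in WT. Rpl29 was much lower, at 115.9 ± 3.40 FPKM in Fyco1-/- and 637 ± 11.4 FPKM in WT (log2 -2.45, limma adjusted p = 8.69e-11). No small subunit gene had a change of that size. The cause of the Rpl29 change was not tested.

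Of 52 tested genes for assembly of the small subunit, 2 were called higher and 1 lower (median log2 0.02), a share no larger than the 8.43% called among all tested genes. Riok3, a kinase that binds late precursors of the subunit, had 59.9, 57.5 and 60.7 FPKM in Fyco1-/- and 40.4, 39.8 and 41.4 FPKM in WT (log2 0.54, limma adjusted p = 6.61e-05). Its relative Riok1, which helps release the last assembly factors, was lower, at 2.78 ± 0.172 FPKM in Fyco1-/- and 3.92 ± 0.388 FPKM in WT. Utp15, part of the early processome, was higher, at 6.51 ± 0.217 FPKM in Fyco1-/- and 5.07 ± 0.304 FPKM in WT. Of 17 genes for transcription of ribosomal RNA, where 5.02% of all tested genes were called lower, 0 were called higher and 2 lower: Polr1d, a subunit shared by RNA polymerases I and III, and Mycn (log2 -0.40 and -0.23, limma adjusted p = 0.04 and 0.0481).

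Of 19 genes that control TOP mRNAs and the kinases of Rps6, 1 was called higher and 1 lower, near the 8.43% called among all tested genes. Tsc2, an inhibitor of mTOR, was higher, at 78.6 ± 2.09 FPKM in Fyco1-/- and 65.8 ± 2.26 FPKM in WT (log2 0.25, limma adjusted p = 0.0055). Tia1, which binds TOP mRNAs in stressed cells, was lower, at 13.5 ± 0.497 FPKM in Fyco1-/- and 16.7 ± 1.12 FPKM in WT. Of 19 genes of partners and turnover of the subunit, also near that share, Hbs1l was higher and G3bp1 lower. Hbs1l, a partner of Pelota in freeing stalled ribosomes, had 72.1 ± 2.63 FPKM in Fyco1-/- and 59.5 ± 1.46 FPKM in WT (log2 0.28, limma adjusted p = 0.00385). G3bp1, a stress granule protein that also binds small subunits, had 16.2 ± 0.262 FPKM in Fyco1-/- and 19.1 ± 0.340 FPKM in WT. Rack1, a signalling scaffold on the head of the subunit that the table lists as Gnb2l1, had 142.1 ± 1.26 FPKM in Fyco1-/- and 141.1 ± 0.731 FPKM in WT, with overlapping groups.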

How the data were processed

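Total RNA of pooled newborn lenses was turned into libraries by means of the NEB Next Ultra kit for paired-end sequencing, per the labels' protocols. The authors used STAR 2.5 for alignment (GRCm38/mm10), HTSeq 0.6.1 for counting per gene, and computed the FPKM values deposited for each library, per the series' design text and the submitters' processing notes. The authors' deposited table also gives log2 fold changes, p-values and adjusted p-values from DESeq2 (release not given). The gene annotation, strand setting, treatment of reads that fit several places and scaling total are not given in the sources used here.

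Genes with a mean of at least 0.5 FPKM (12001) were tested on log2(FPKM + 0.5) with limma 3.58.1 in R 4.3.3, trend and robust moderation, genotype as the only term, two-sided, with Benjamini-Hochberg adjustment over all of them. This scale understates the fold change of low genes. With 3 libraries a genotype the smallest exact permutation p is 0.1, so single genes rest on limma. Of all steps, only the limma fit was tested on simulated data. Gene positions, lengths and coding sequences came from GENCODE M21 (96.6% of entries matched by current or older symbol, since the table holds no gene IDs), start windows from RefSeq (GRCm38.p6), and near-identical genes from blastn 2.17.0. Depth was estimated from the steps of low FPKM values, of which about 36% fell within 0.05 of a whole read, so the estimate is rough and no counts were recovered. Library letters were not used as pairs. The members, lists and named genes were chosen with earlier results of these data known. Called genes and the 3 most and least abundant members get every library's value, and of each other list up to 4 called genes by p are named. A list of further small subunit genes is not reported here. Gnb2l1, Bfsp2, the pseudogenes and Rps13 are added. Alternatives were other pseudocounts, filters and scalings, no robust moderation, a block on the letter, and leaving out each library.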

Additional observations from a re-analysis of the deposited data

How the results depend on the processing

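The count of small subunit genes called higher ran from 4 (no filter on low values) to 7 (at least 1 FPKM in 3 libraries), and from 4 to 5 without 1 library, against 6. Rps29, Rps28, Rps23 and Rps18 were called higher in all 18 alternatives. Fau was not called in 10 of the 18 and Rps27 in 8. The count called lower was 0 with median-of-ratios scaling, and 1 to 2 without 1 library. The members' median log2 fold change was 0.086 with median-of-ratios scaling and 0.01 to 0.06 without 1 library. For large subunit genes, 6 to 11 were called higher without 1 library. Their count called lower was 1 without any library, and 1 with crystallins left out before scaling, median-of-ratios scaling, no filter, no robust moderation, a pseudocount of 1, quantile normalization, the replicate block, or trends on exon length and GC content removed (chosen after the data were seen). Without a filter 568 genes were called in all, and without 1 library 607 to 863. Of all calls 40.5% were higher, 56.5% with median-of-ratios scaling, 48.2% with quantile normalization and 55.8% with the trends removed.

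Sign changes occurred in genes near 0 that were not called. With crystallins left out Rps24 was 0.00058. With median-of-ratios scaling Rps24 was 0.041 and Rps9 0.034. With quantile normalization Rps15 was -0.033, Rpsa 0.0062 and Rps9 0.013. With TPM Rps15 was -0.012. With the trends removed Rps15 was -0.0062, Rps24 0.028 and Rps9 0.031. Without 1 library Rps24 ran from -0.036 to 0.022, Rps9 from -0.030 to 0.0050, Rps15 from -0.018 to 0.015, Rps26 from -0.0094 to 0.045, Rps12 from -0.0087 to 0.043 and Rps6 from -0.0081 to 0.052. The causes were not tested.

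Same-letter libraries did not deviate together over all tested genes (r over genes -0.0305 for A, 0.0281 for B, 0.0274 for C). A batch that moves few genes could escape this measure, so pairing by letter is not excluded. With the replicate block 929 genes were called, 6 small subunit genes higher and 1 lower, with Rps21 called (adjusted p = 0.0388) and Fau not (adjusted p = 0.0779). Depth is only estimated, so no counting intervals are given, and 3 libraries a genotype limit what small changes can be called.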
